A study of Homo sapiens with 2 samples.

Results

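The azurophil granule genes described here are 7 of the 36601 genes in the deposited matrices: ELANE, PRTN3, CTSG, AZU1, MPO, LYZ and SRGN. They were chosen by name, with their levels in these same libraries already known, so the levels are given as a description and carry no test. The study profiled single cells to learn how SP11, which it presents as an HSP90 inhibitor, alters leukemic cells. HSP90 is a chaperone on which many signalling proteins depend for their folding. Cells labelled MOLT4, an established line derived from a T-cell acute lymphoblastic leukemia, were either exposed to SP11 at 0.8 µM for 48 h or left untreated as the control. Each group is 1 library on the 10x platform, so no value below has a replicate check, and each difference is one between these libraries.

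The SP11 library held 864 barcodes and 9561360 UMIs, and the control library held 1076 barcodes and 19512669 UMIs. A UMI is a molecular tag that lets each captured RNA be counted once. After filtering, 852 SP11 cells with a median of 10488.5 UMIs and 1053 control cells with a median of 17711 UMIs remained, and the median mitochondrial share was 5.51% in SP11 and 8.94% in control. The labelled lineage was checked against 12 T-lineage markers, which summed to 1.47 CPM (UMIs per 1000000 UMIs of the library) in SP11 and 1.29 CPM in control. Of these 12 genes, 8 were at 0 in each library, including CD3D, CD3G, CD7, TRBC1, TRBC2, BCL11B and DNTT in both. Of 8 granulocyte precursor markers, a list that includes 5 of the genes described here, 6 reached 10 CPM in each library. The barcodes of 109 cells occur in both libraries, and results without them are given with the alternatives at the end.

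Azurophil granules are the first granules that a developing neutrophil makes, at the promyelocyte stage, and monocyte precursors make related granules. They store ready-to-use proteases, antimicrobial proteins and a peroxidase, which are packed on a proteoglycan scaffold and released into phagosomes that hold ingested microbes. Their genes are typically transcribed during a short window of granulocyte development and are shut down as the cell matures. ELANE encodes neutrophil elastase, PRTN3 encodes proteinase 3 and CTSG encodes cathepsin G, which are serine proteases of 1 family. AZU1 encodes azurocidin, a relative of elastase that has lost protease activity and acts against microbes. MPO encodes myeloperoxidase, which makes hypochlorous acid. LYZ encodes lysozyme, which cleaves bacterial cell walls and is also made by monocytes and macrophages. SRGN encodes serglycin, the core protein of the proteoglycan that retains granule proteins, and many blood cells make it.

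AZU1 (ENSG00000172232), PRTN3 (ENSG00000196415) and ELANE (ENSG00000197561) lie side by side on the plus strand of chromosome 19, at 825097 to 832018, 840999 to 848175 and 851014 to 856247 (GRCh38, GENCODE 44). Together they span 31151 bases. CTSG (ENSG00000100448) lies on the minus strand of chromosome 14 at 24573518 to 24576250, MPO (ENSG00000005381) on the minus strand of chromosome 17 at 58269855 to 58280935, LYZ (ENSG00000090382) on the plus strand of chromosome 12 at 69348381 to 69354234, and SRGN (ENSG00000122862) on the plus strand of chromosome 10 at 69088103 to 69104805. All 7 are protein-coding genes.

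Promoters were matched in RefSeq (GRCh38.p14) for 3 of the 7 genes, each as a window of 300 bases that runs from 250 before the annotated start to 50 after it. They are the members with a window in the RefSeq table used here, and are shown because they are protease-family genes whose lower levels in SP11 differed in size. Capitals mark matches on either strand to GAGGAA (an ETS core of the PU.1 type), TTNNGNAA (C/EBP-like) or AACNG (MYB-like), for which factors that act in granulocyte precursors are known. The windows are AZU1 at chr19:827587-827886 on the plus strand, PRTN3 at chr19:840749-841048 on the plus strand and CTSG at chr14:24576201-24576500 on the minus strand, each printed 5′ to 3′ on its gene's strand. The RefSeq start of AZU1 lies inside the GENCODE gene given above, which begins farther upstream.
AZU1: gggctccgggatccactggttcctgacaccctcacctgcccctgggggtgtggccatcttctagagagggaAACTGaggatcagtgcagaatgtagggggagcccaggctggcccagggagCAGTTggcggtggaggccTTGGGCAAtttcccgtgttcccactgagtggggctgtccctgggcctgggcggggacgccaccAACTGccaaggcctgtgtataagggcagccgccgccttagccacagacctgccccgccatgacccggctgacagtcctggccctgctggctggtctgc
PRTN3: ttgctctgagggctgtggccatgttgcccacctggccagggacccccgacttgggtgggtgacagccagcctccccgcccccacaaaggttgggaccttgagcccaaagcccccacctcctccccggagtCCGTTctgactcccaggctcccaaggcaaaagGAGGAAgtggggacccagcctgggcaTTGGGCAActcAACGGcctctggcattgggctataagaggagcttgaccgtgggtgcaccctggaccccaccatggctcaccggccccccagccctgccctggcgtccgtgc
CTSG: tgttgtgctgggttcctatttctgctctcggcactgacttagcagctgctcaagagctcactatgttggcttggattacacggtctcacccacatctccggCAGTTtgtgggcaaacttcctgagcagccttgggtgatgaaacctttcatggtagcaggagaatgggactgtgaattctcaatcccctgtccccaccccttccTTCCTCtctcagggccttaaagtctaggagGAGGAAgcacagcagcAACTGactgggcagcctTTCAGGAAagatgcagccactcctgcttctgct
The AZU1 and PRTN3 windows hold the same 8 letters TTGGGCAA, beginning at position -111 from the start in AZU1 and -62 in PRTN3, while the C/EBP-like match of CTSG, TTCAGGAA, begins at position 18. The ETS core occurs 1 time in PRTN3, at position -88, and 2 times in CTSG, at -46 and -16, and these letters are not in the AZU1 window. The MYB-like letters occur 3 times in AZU1 and 2 times each in PRTN3 and CTSG. The exact letters TATAAA, the core of the TATA box, are in none of these 3 windows. TATAAG, which differs from them by 1 letter, is in the AZU1 and PRTN3 windows and was not among the letters counted. Among all 35116 promoter windows of the same length, 27.9% hold the ETS core, 36.8% the C/EBP-like letters, 77.2% the MYB-like letters and 11.5% TATAAA. No motif overlaps another in the 3 windows. ELANE, MPO, LYZ and SRGN are named without a sequence.

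The genes did not differ as a block between the libraries. The 3 neighbours on chromosome 19 had a lower level in SP11, AZU1 by the most, LYZ had a higher level, and SRGN was at about the same level in both. ELANE had 4528 UMIs or 477 CPM (95% Poisson interval 463 to 491) in the SP11 library, against 21511 UMIs or 1110 CPM (1095 to 1125) in the control library. Its log2 ratio of CPM, SP11 over control, was -1.22 (95% interval -1.27 to -1.17), or 2.33-fold lower. These intervals cover counting error only.

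PRTN3 had 927 UMIs or 97.6 CPM in SP11 and 5097 UMIs or 263 CPM in control, a log2 ratio of -1.43 (-1.53 to -1.33). AZU1 had 895 UMIs or 94.2 CPM in SP11 and 8468 UMIs or 437 CPM in control, a log2 ratio of -2.21 (-2.31 to -2.11) or 4.64-fold lower. CTSG had 3047 UMIs or 321 CPM in SP11 and 8609 UMIs or 444 CPM in control, a log2 ratio of -0.47 (-0.53 to -0.41). The azurocidin transcript was thus the lowest of the 4 protease-family transcripts relative to control, and cathepsin G the least changed, with intervals that do not overlap among AZU1, PRTN3, ELANE and CTSG. ELANE, AZU1 and PRTN3 summed to 669 CPM in SP11 and 1810 CPM in control.

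LYZ had 6988 UMIs or 736 CPM in SP11 and 4670 UMIs or 241 CPM in control, a log2 ratio of 1.61 (1.56 to 1.66) or 3.05-fold higher. It had more UMIs in SP11 although that library has fewer UMIs in all. LYZ is also 1 of 8 markers of monocytes or macrophages checked here, of which 2 reached 10 CPM in each library and MRC1 was at 0 in both. These 8 markers summed to 768 CPM in SP11 and 261 CPM in control, nearly all of it LYZ, and their part in the difference was not tested. SRGN had 18164 UMIs or 1912 CPM in SP11 and 37935 UMIs or 1958 CPM in control, a log2 ratio of -0.03 (-0.06 to -0.01). With library totals the serglycin transcript thus differed less than those of the other measured members, which does not hold against CTSG under other scalings given below. MPO was close to 0, with 5 UMIs in 4 SP11 cells and 3 UMIs in 3 control cells, or 0.526 CPM and 0.155 CPM, so myeloperoxidase, a defining gene of this granule, is at the limit of detection in both libraries and its ratio is not given.

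**Figure D1:**
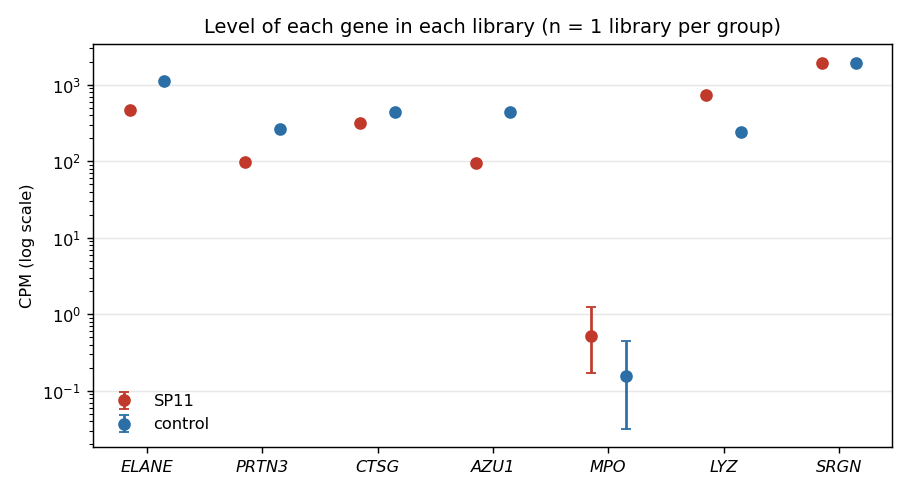
Level of each of the 7 genes in CPM on a log axis, in the SP11 library (red, left of each pair) and the control library (blue), with 95% Poisson intervals that are smaller than the points except for MPO. ELANE, PRTN3 and AZU1 lie lower in SP11, LYZ lies higher, SRGN lies at 1912 and 1958 CPM, and MPO lies below 1 CPM in both.

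Measured in CPM, most genes were lower in SP11, which sets the background for these ratios. Over the 12128 genes with at least 50 UMIs in both libraries together, called measured here, the median log2 ratio was -0.35. A ratio at least 1.5-fold lower was seen in 38.4% of measured genes, one at least 4-fold lower in 5.85%, and one at least 1.5-fold higher in 10.7%. Of the 6 measured azurophil genes, ELANE, PRTN3 and AZU1 were past 1.5-fold lower, AZU1 also past 4-fold, and LYZ past 1.5-fold higher, and nothing is read from these counts because the genes were chosen on this contrast. Of all measured genes, 4.40% had a lower ratio than AZU1, 12.0% than PRTN3, 16.1% than ELANE, 43.7% than CTSG, 65.8% than SRGN and 99.1% than LYZ. Relative to the median gene the log2 ratio was -1.86 for AZU1, -1.08 for PRTN3, -0.87 for ELANE, -0.12 for CTSG, 0.32 for SRGN and 1.96 for LYZ. SRGN is thus slightly lower or higher in SP11 depending on the scaling, and CTSG lies nearer to the median gene than SRGN does. Genes with longer introns had lower ratios, with a median of -1.02 in the last of 20 bins by intronic length. With the median of its own bin subtracted, the log2 ratio was -2.23 for AZU1, -1.45 for PRTN3, -1.24 for ELANE, -0.59 for CTSG, 0.13 for SRGN and 1.59 for LYZ.

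Ratios of the UMIs of 2 members within a library need no scaling by library totals. ELANE, AZU1, PRTN3 and LYZ lie in the same bin of intronic length. CTSG and SRGN lie in other bins, so the change of their ratios to ELANE between libraries also carries that trend. ELANE had 5.06 UMIs per AZU1 UMI in SP11 (95% interval 4.71 to 5.44) and 2.54 in control (2.48 to 2.61). It had 4.88 UMIs per PRTN3 UMI in SP11 (4.55 to 5.25) and 4.22 in control (4.09 to 4.35). The elastase and proteinase 3 transcripts thus kept closer proportions between the libraries than elastase and azurocidin did. AZU1 had 0.965 UMIs per PRTN3 UMI in SP11 (0.880 to 1.06) and 1.66 in control (1.60 to 1.72). ELANE had 1.49 UMIs per CTSG UMI in SP11 and 2.50 in control. LYZ had 1.54 UMIs per ELANE UMI in SP11 and 0.217 in control, and SRGN had 4.01 UMIs per ELANE UMI in SP11 and 1.76 in control.

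The neighbours of the chromosome 19 genes spread over a wide range of ratios. On the AZU1 side, PLPPR3, which encodes a phospholipid phosphatase-related protein, had 3 UMIs in SP11 and 363 in control, a log2 ratio of -5.89 (-8.17 to -4.33). On the ELANE side, CFD, which encodes complement factor D, itself a serine protease, lay at 43.2 CPM in SP11 and 61.9 CPM in control, a log2 ratio of -0.52 (-0.69 to -0.36). In chromosomal order, the log2 ratio went up at every gene, with PLPPR3 at -5.89, AZU1 at -2.21, PRTN3 at -1.43, ELANE at -1.22, CFD at -0.52, MED16 at 0.81 and R3HDM4 at 1.65. MED16 is a subunit of the Mediator complex. Farther out on the AZU1 side, PTBP1, a splicing regulator, had a log2 ratio of 1.14, and PALM had 11 UMIs in SP11 and 45 in control, so the order does not extend past PLPPR3. MISP and KISS1R had 0 UMIs in both libraries. No test of this order was made.

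The neighbours of the other members had their own values. Next to CTSG, in a cluster of serine protease genes on chromosome 14, CMA1 (mast cell chymase) had 3 UMIs in SP11 and 2 in control, GZMH had 1 in each, and GZMB (granzyme B) had 0 in both. The neighbouring proteases of mast cells and lymphocytes were thus near 0 beside CTSG at 321 CPM and 444 CPM. Next to LYZ, the log2 ratio was -0.76 for CPM, the gene of carboxypeptidase M, -0.52 for CPSF6, 0.03 for YEATS4 and -0.73 for FRS2, all below that of LYZ. Next to SRGN, it was 1.34 for DDX21, -0.25 for KIF1BP, 0.35 for VPS26A and 0.02 for SUPV3L1.

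**Figure D2:**
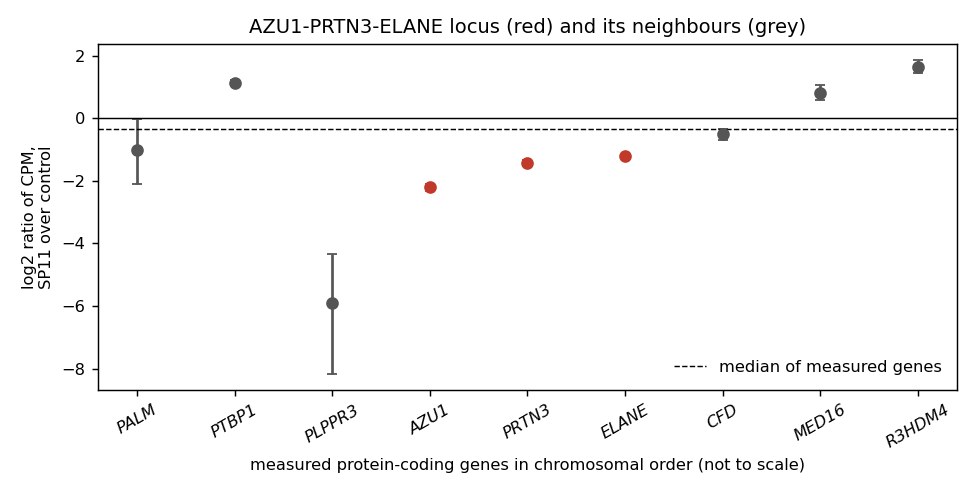
Log2 ratio of CPM, SP11 over control, with 95% counting intervals, of the measured genes around AZU1, PRTN3 and ELANE (red) in chromosomal order, with distances not to scale. Ratios go up from PLPPR3 (-5.89) to R3HDM4 (1.65), and a dashed line marks the median measured gene (-0.35).

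In single cells, the lower protease levels in SP11 went with fewer cells that held a UMI. To compare cells at equal depth, each was thinned to 4400 UMIs, which 769 SP11 cells and 963 control cells reached. ELANE was then detected in 80.4% of SP11 cells (95% exact binomial interval 77.4 to 83.1) and 94.5% of control cells (92.9 to 95.9). PRTN3 was detected in 34.2% of SP11 cells (30.8 to 37.7) and 62.0% of control cells (58.8 to 65.1). AZU1 was detected in 33.6% of SP11 cells (30.2 to 37.0) and 80.1% of control cells (77.4 to 82.5), the widest gap of the 7 genes. CTSG was detected in 56.7% of SP11 cells (53.1 to 60.2) and 73.4% of control cells (70.5 to 76.2).

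LYZ went the other way, with a UMI in 85.2% of SP11 cells (82.5 to 87.6) and 56.4% of control cells (53.2 to 59.5). SRGN was near saturation, in 98.4% of SP11 cells and 99.7% of control cells, and MPO was found in 1 of 769 SP11 cells and 1 of 963 control cells. Without thinning the shares were 89.9% of SP11 cells and 96.0% of control cells for ELANE, 55.0% and 86.9% for PRTN3, 57.5% and 92.8% for AZU1, 74.3% and 90.9% for CTSG, 93.2% and 86.0% for LYZ, and 98.1% and 96.8% for SRGN. The libraries offer no cell type known to be free of these transcripts, so the contribution of free RNA to the shares was not measured.

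The number of UMIs per cell shows the same order. At 4400 UMIs, an SP11 cell had a median of 2 ELANE UMIs with quartiles of 1 and 3, against a median of 4 with quartiles of 2 and 7 in control cells. The 95th percentile was 6 ELANE UMIs in SP11 and 12 in control, so the whole distribution of the elastase transcript sat lower in SP11 and still overlapped that of control. For LYZ the median was 2 UMIs in SP11 and 1 in control, and the 95th percentile was 9 in SP11 and 3 in control. For SRGN the median was 8 UMIs and the quartiles were 5 and 12 in both libraries. The serglycin distributions at equal depth thus lay on top of each other, at a mean of 8.85 UMIs in SP11 and 8.81 in control.

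**Figure D3:**
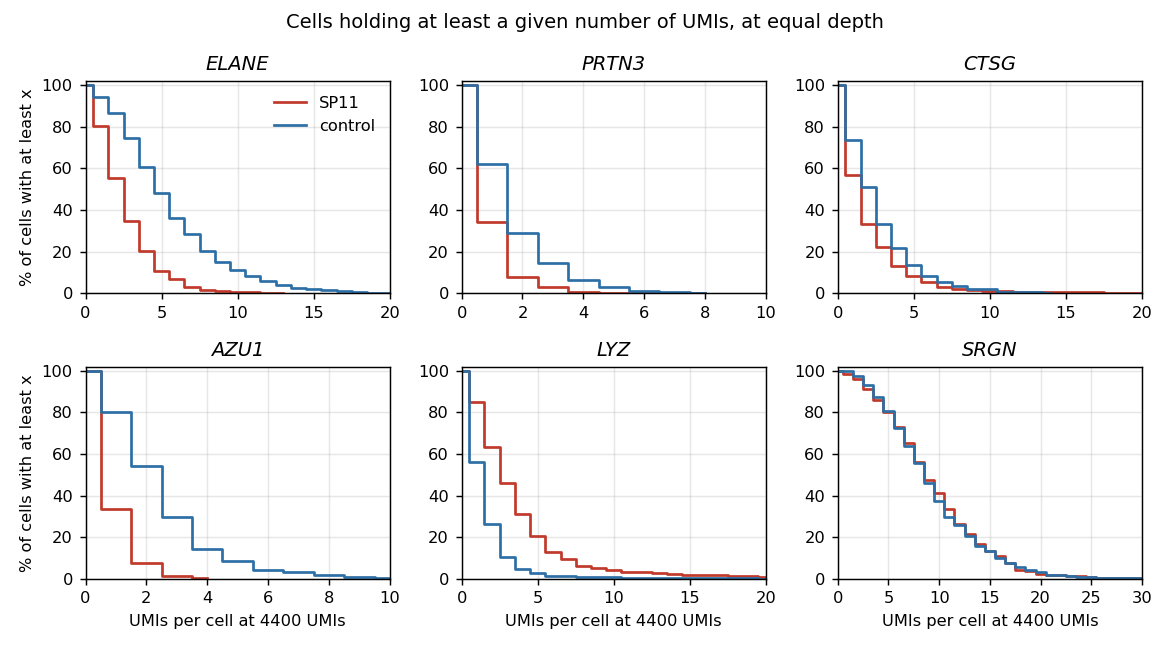
Share of cells, in percent, with at least the number of UMIs on the horizontal axis, after each cell was thinned to 4400 UMIs (769 SP11 cells, red, and 963 control cells, blue). The SP11 curve lies below that of control for ELANE, PRTN3 and AZU1, above it for LYZ, and on it for SRGN.

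Co-detection of the 3 chromosome 19 genes was lower in SP11, where each of the 3 was also detected in fewer cells. Lower shares of the single genes bring a lower share of cells with all 3. Whether co-detection departs from what the single shares give was not tested. All of ELANE, AZU1 and PRTN3 were detected in 10.9% of SP11 cells (8.81 to 13.3) and 50.1% of control cells (46.8 to 53.3) at 4400 UMIs. None of the 3 was detected in 10.7% of SP11 cells (8.57 to 13.1) and 1.35% of control cells (0.721 to 2.30). Cells with ELANE but no LYZ made up 10.5% of SP11 cells and 41.0% of control cells. Cells with LYZ but no ELANE made up 15.3% of SP11 cells (12.9 to 18.1) and 2.91% of control cells (1.94 to 4.17). Cells with both were the most common kind in each library, at 69.8% of SP11 cells and 53.5% of control cells. Most cells with a UMI of elastase or lysozyme therefore held both at this depth, in either library.

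Some deeply counted cells held no ELANE. Of 456 SP11 cells with at least 10000 UMIs, 19 (4.17%) had no ELANE UMI, against 3 of 915 control cells (0.328%). The deepest such cell had 21990 UMIs in SP11 and 14544 UMIs in control, at which the mean level of the library would give 10.5 and 16.1 ELANE UMIs. The cells with at least 10000 UMIs were not thinned, so their shares without ELANE are not at equal depth. Over all kept cells the median was 10488.5 UMIs in SP11 and 17711 UMIs in control. No single cell held more than 2.10% of the UMIs of a measured member, a share reached by LYZ in control, where 1 cell had 98 UMIs.

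All 6 measured members varied over cells by more than counting noise, which held for the median gene to a smaller degree. The Fano factor, the variance over the mean, is 1 for counting noise alone and had a median of 1.04 in each library over genes with at least 200 UMIs. For SRGN it was 2.85 in SP11 and 2.94 in control, for ELANE 1.74 and 2.54, for PRTN3 1.34 and 1.54, and for AZU1 1.12 and 1.70. Of these genes, 81.2% in SP11 and 99.1% in control had a lower Fano factor than AZU1. For each other measured member that share was at least 96.2% in either library. A Fano factor grows with the mean, so the coefficient of variation left after counting noise is given too. It was 0.587 in SP11 and 0.555 in control for ELANE, 0.857 and 0.677 for PRTN3, 0.523 and 0.593 for AZU1, and 0.457 and 0.469 for SRGN. For the median gene it was 0.337 in SP11 and 0.359 in control. At 2000 UMIs it was 0.433 and 0.541 for ELANE, 1.07 and 0.643 for PRTN3, 0.648 and 0.499 for AZU1, and 0.424 and 0.502 for SRGN, so the order of the libraries turned with depth for ELANE and AZU1 and did not for PRTN3 and SRGN.

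CTSG was more unevenly spread over SP11 cells at each of the 3 depths tried. Its coefficient of variation beyond counting was 1.24 in SP11 and 0.818 in control, and its Fano factor was 3.34 in SP11 and 2.44 in control. At 2000 UMIs the coefficient was 1.19 in SP11 and 0.751 in control, and at 8000 it was 1.26 and 0.775. The 10% of cells with the most CTSG held 43.2% of its UMIs in SP11 and 33.7% in control. The 95th percentile of CTSG was 6 UMIs in SP11 and 7 in control, and the highest cell had 21 UMIs in SP11 and 14 in control, so the cathepsin G transcript was more concentrated in a few cells in SP11. LYZ had a Fano factor of 4.41 in SP11 and 2.63 in control. Its coefficient was 1.05 in SP11 and 1.23 in control at 4400 UMIs, but 1.06 and 0.909 at 2000 and 1.06 and 0.993 at 8000, so no order between the libraries is read from it. At 4400 UMIs the 10% of cells with the most LYZ held 35.8% of its UMIs in SP11 and 41.3% in control.

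With counting noise left in, the members were weakly related to each other over cells. The values are Pearson correlations of log2(UMIs + 1) at 4400 UMIs over cells of 1 library, which share that library and its depth, and they are a description. ELANE and PRTN3 had a correlation of 0.22 in SP11 and 0.29 in control. Among 8871 genes with at least 200 UMIs, PRTN3 was the gene most correlated with ELANE in control, and among 6062 such genes in SP11 its rank was 3. With the counting noise of each gene subtracted, the correlation of ELANE and PRTN3 was 0.740 in SP11 and 0.692 in control. Without that subtraction, ELANE and AZU1 had a correlation of 0.09 in SP11 and 0.16 in control. With it, ELANE and AZU1 had 0.480 in SP11 and 0.238 in control. Either way the value was below that of ELANE and PRTN3 in each library. At 2000 UMIs the corrected value of ELANE and AZU1 was 0.476 in SP11 and 0.643 in control, so the order of the libraries depended on depth.

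With counting noise subtracted, ELANE and SRGN had a correlation of 0.401 in SP11 and 0.288 in control. That was below the corrected value of ELANE and PRTN3 in each library. The other values of this paragraph have counting noise left in. On that scale ELANE and SRGN had 0.29 in SP11 and 0.18 in control, and SRGN was the gene most correlated with ELANE in SP11. ELANE and LYZ had a correlation of 0.07 in SP11 and 0.09 in control, and AZU1 and LYZ 0.06 and 0.02. LYZ and SRGN had one of 0.15 in SP11 and 0.20 in control, where each was the other's most correlated gene. All 15 pairs were above 0 in both libraries at this depth, but AZU1 and LYZ had -0.01 in SP11 at 2000 UMIs. The median correlation of ELANE with all genes was 0.01 in SP11 and -0.01 in control. The share of all gene pairs above 0 was not counted, so nothing is read from the count of pairs.

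**Figure D4:**
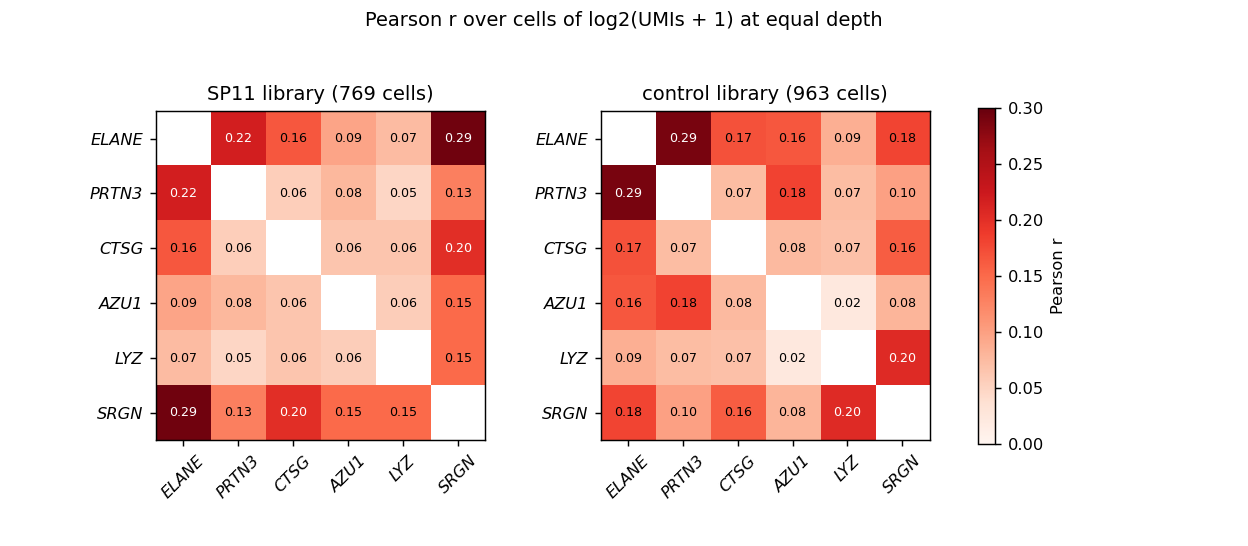
Pearson correlation over cells of log2(UMIs + 1) at 4400 UMIs for each pair of 6 members, in the SP11 library (left) and the control library (right). With counting noise left in, as here, ELANE with SRGN is the highest pair in SP11 (0.29) and ELANE with PRTN3 the highest in control (0.29).

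The genes most like each member were taken as the 5 with the highest such correlation. For ELANE in SP11 they were SRGN, CST7 (0.25), PRTN3, P4HB (0.19) and RPL7 (0.18). CST7 encodes cystatin F, a protease inhibitor of granules and lysosomes, and P4HB a protein disulfide isomerase of the endoplasmic reticulum. For ELANE in control they were PRTN3, PTMA (0.22) and the ribosomal protein genes RPL13, RPL18 and RPL37 (each 0.20). The gene with the lowest correlation with ELANE was FTH1, the ferritin heavy chain, in SP11 (-0.28) and CXCL8, a chemokine, in control (-0.19).

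The partners of LYZ differed from those of ELANE. In SP11 they were S100A8 (0.29), S100A9 (0.28), FTL (0.27), FTH1 (0.24) and CSTB (0.23), that is, the 2 subunits of calprotectin, both ferritin chains and cystatin B. With ELANE, S100A8 had a correlation of -0.23 and S100A9 one of -0.21 in SP11. Genes that ran with lysozyme in SP11 thus ran against elastase there, while LYZ and ELANE themselves were close to unrelated. In control the partners of LYZ were SRGN (0.20), GLO1 (0.14), CCND3 (0.14), CST3 (0.13) and MGAT4A (0.12). For SRGN, ELANE and CTSG (0.20) led in SP11, and ITGA4 (0.19) and PDE4D (0.19) were also among the 5. In control LYZ led for SRGN, followed by ATP8B4 (0.19), ELANE, GLO1 (0.16) and LGALS1 (0.16).

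For PRTN3, ELANE led in both libraries, followed by RPAIN (0.17), GPN2 (0.14), BEX1 (0.13) and SRGN (0.13) in SP11 and in control by genes that included RPL28 (0.19), AZU1 (0.18) and RPL12 (0.16). For AZU1 the partners were CEBPZOS (0.16), SRGN (0.15), SAT2 (0.15), TUBB4B (0.14) and RBFA (0.13) in SP11, and LINC00926 (0.19), GBE1 (0.19), PRTN3 (0.18), AC079466.1 (0.18) and IDI1 (0.18) in control. The median correlation of AZU1 with all genes was 0.00 in each library, and 1 gene in 20 lay above 0.07 in SP11 and 0.06 in control. Such values in sparse counts are no finding about any 1 partner. For CTSG, for which partners were added after the other values were seen, RPL7 (0.26), SRGN (0.20), P4HB (0.20), MYB (0.19) and ELANE (0.16) led in SP11, and 5 ribosomal protein genes, with RPL30 (0.20) first, led in control.

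Clusters were formed in each library alone with the 7 genes left out, so that their levels did not shape them directly. Each library gave 6 clusters, of which 1 held shallow barcodes (70 SP11 cells with a median of 1826 UMIs and 76 control cells with a median of 787.5 UMIs). UMIs of every member but MPO were found in all clusters of both libraries, and the part of free RNA in these was not measured. In SP11, cluster 3 (130 cells, with ATP6V0D2, S100A12, CCL4, CCL3 and TDO2 among its leading genes) had the lowest ELANE, at 307 CPM (282 to 335), while cluster 4 (84 cells, led by histone genes) had the highest, at 666 CPM (615 to 719). Cluster 3 also had the lowest PRTN3 of any SP11 cluster (58.2 CPM), the lowest CTSG (176 CPM), the lowest AZU1 (72.1 CPM) and the lowest SRGN (1516 CPM). Its LYZ was 1097 CPM (1048 to 1147), against 482 to 885 CPM in the other deep SP11 clusters. The intervals of cluster 3 overlapped those of clusters 0, 2 and 5 for AZU1 and that of cluster 5 for PRTN3. The deep SP11 cluster with the least elastase, cathepsin G and serglycin transcript thus had the most lysozyme transcript.

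This contrast sharpened in a smaller group of cells. At a resolution of 0.3, with the 7 genes still left out, 19 SP11 cells with a median of 13512 UMIs formed a cluster led by ATP6V0D2, SLC26A11, TDO2, C1QA and MMP1. ELANE was at 94.7 CPM in them (60.7 to 141), PRTN3 at 31.6 CPM, CTSG at 82.9 CPM, AZU1 at 27.6 CPM, SRGN at 722 CPM and LYZ at 1579 CPM (1428 to 1741). The highest cluster over the lowest was 5.70-fold for ELANE at that resolution and 2.17-fold in the main clusters. These 19 cells were not a shallow group.

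In control the highest deep cluster over the lowest was 1.30-fold for ELANE and 1.92-fold for AZU1, against 1.70-fold for AZU1 in SP11. Among the deep control clusters, ELANE was highest in cluster 1 (242 cells, led by LZTS1 and SLC35D2) at 1216 CPM (1185 to 1249). ELANE was lowest among them in cluster 3 (136 cells, led by DEFB1) at 934 CPM (894 to 975). AZU1 was at 622 CPM (597 to 648) in control cluster 0 (248 cells, led by TDO2, SPP1 and CCL4), against 324 CPM (301 to 349) in control cluster 3. Among the deep control clusters, PRTN3 was also highest in cluster 0, at 320 CPM, and lowest in cluster 3, at 201 CPM. Control cluster 0 had the most LYZ of the deep clusters as well, at 282 CPM. At a resolution of 0.8, AZU1 spanned 1.64-fold in SP11 and 3.43-fold in control and LYZ 2.34-fold and 3.07-fold. AZU1 was then at 1115 CPM and LYZ at 379 CPM in a control cluster of 57 cells led by AL136962.1, C4orf47 and HIF1A-AS3. In that library the cluster led by TDO2 and CCL4 thus had high azurocidin, proteinase 3 and lysozyme together, whereas SP11 cluster 3, which also has CCL4 and TDO2 among its leading genes, had low protease and high lysozyme transcripts. Clusters of the 2 libraries were made separately, and this difference was not tested.

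**Figure D5:**
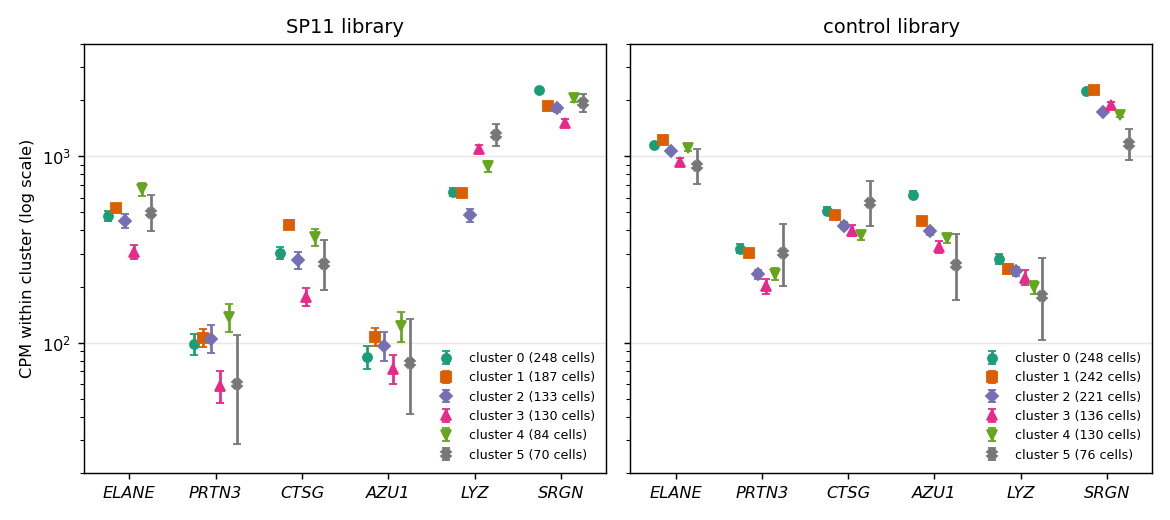
CPM of 6 members on a log axis within each cluster of the SP11 library (left) and the control library (right), with 95% Poisson intervals; cluster 5 is the shallow one in each. In SP11, cluster 3 lies lowest for ELANE (307 CPM) and high for LYZ (1097 CPM). In control ELANE spans 884 to 1216 CPM, the shallow cluster included.

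By cell cycle phase, ELANE varied less than PRTN3, CTSG and AZU1 in each library. The highest phase over the lowest was 1.09-fold in SP11 and 1.15-fold in control for ELANE. It was 1.26-fold and 1.35-fold for PRTN3, 1.52-fold and 1.20-fold for CTSG, and 1.35-fold and 1.49-fold for AZU1. LYZ spanned 1.25-fold in SP11 and 1.23-fold in control, and SRGN 1.09-fold and 1.28-fold. In SP11, ELANE lay at 462 CPM in G1, 456 CPM in S and 500 CPM in G2M, and in control at 1098 CPM in G1, 1197 CPM in S and 1037 CPM in G2M. AZU1 varied most by phase in control, with 550 CPM in G1 (529 to 572), 434 CPM in S and 369 CPM in G2M (355 to 383). In SP11, AZU1 lay at 88.4 CPM in G1 (77.4 to 100), 79.8 CPM in S and 107 CPM in G2M (97.6 to 118). The phase with the most azurocidin transcript was thus G1 in control. In SP11 the highest value was that of G2M, but its interval overlapped that of G1. CTSG lay at 374 CPM in SP11 cells scored as G2M and 246 CPM in those scored as S, and at 397 CPM and 474 CPM in control.

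Other proteins of the azurophil granule moved in both directions. Of 23 such genes in the matrices, 17 were measured, with a median log2 ratio of -0.00 against -0.35 for all measured genes. Of these, 4 were higher by 1.5-fold or more in SP11 and 3 lower by that much, beside 10.7% and 38.4% of all measured genes. Relative to the median gene, 6 were higher and 1 lower, beside 22.5% and 24.3% of all measured genes. The lowest were PRSS57 (-1.53), a further serine protease of this granule, SERPINB10 (-0.84) and SERPINB1 (-0.79), an inhibitor of elastase, proteinase 3 and cathepsin G. PRSS57 had 11 UMIs in SP11 and 65 in control. Among the highest were RNASE2 (1.95), the eosinophil-derived neurotoxin, and RNASE3 (0.84), the eosinophil cationic protein. RNASE2 lay at 177 CPM in SP11 and 45.8 CPM in control, and it shares sequence with RNASE3, so that reads may be assigned between them with error. The defensin genes DEFA1, DEFA1B, DEFA3 and DEFA4 had 0 UMIs in both libraries, which allows up to 0.316 CPM in SP11 and 0.155 CPM in control. DEFA1, DEFA1B and DEFA3 are near-identical copies, whose reads may be discarded in counting. BPI, a protein that kills Gram-negative bacteria, had 0 UMIs in SP11 and 5 in control.

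General lysosomal proteases and hydrolases were higher than the median gene more often than lower. Of 20 measured, 8 were higher by 1.5-fold or more and 2 lower in SP11, with a median log2 ratio of 0.45. Of all measured genes, 10.7% were higher and 38.4% lower by that much. FUCA1 (1.17), a fucosidase, CTSH (1.04) and CTSA (1.04), both cathepsins, were highest, and ASAH1 (-0.90), acid ceramidase, CTSZ (-0.87) and DNASE2 (-0.36) were lowest. CTSL and ACP5 had 0 UMIs in both libraries. Among 12 measured genes of protease maturation and inhibition, 3 were higher and 3 lower, beside 10.7% and 38.4% of all measured genes, with a median of -0.07. CTSC, the dipeptidyl peptidase that activates elastase, proteinase 3 and cathepsin G, had a log2 ratio of 0.26, with 135 CPM in SP11 and 113 CPM in control. The transcript of the activating enzyme was thus slightly higher in the SP11 library, and neither its protein nor its activity was measured. TIMP1 (1.49), CSTA (1.25) and CSTB (1.11), all protease inhibitors, were highest and SLPI (-0.95), an elastase inhibitor, SERPINB1 and CST3 (-0.63) were lowest. SERPINA3 and PI3 were at 0 in both. CTSC, SERPINB1 and CST7 stand in the list of azurophil proteins as well as in that of maturation and inhibitors.

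Proteins of later granules and of other granule-bearing cells were mostly near 0. Of 18 specific and gelatinase granule genes, 5 were measured, with a median log2 ratio of 0.39. Of these, 2 were higher and 0 lower, beside 10.7% and 38.4% of all measured genes. MMP9, gelatinase B, had 99 UMIs in SP11 and 19 in control (3.41), CYBB, the oxidase subunit gp91phox, had a log2 ratio of 1.43 and CYBA one of -0.24. LCN2, CRISP3, OLFM4, TCN1, ORM1 and CD177 were at 0 in both libraries. Of 17 mast cell, eosinophil and lymphocyte granule genes, 2 were measured, TPSAB1 (0.29) at 88.9 CPM in SP11 and 72.8 CPM in control and NKG7 (0.15) at 231 CPM and 208 CPM. CPA3, HDC, EPX, PRG3, CLC, GZMB, GZMK and PRF1 were at 0 in both. TPSAB1 encodes a mast cell tryptase and is nearly identical to TPSB2.

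Of 22 measured enzymes that build the glycosaminoglycan chains of serglycin, 3 were at least 1.5-fold higher and 7 lower, near the shares of all measured genes (10.7% and 38.4%), with a median log2 ratio of -0.32. XYLT1 (-1.10), which attaches the first xylose, CSGALNACT2 (-0.99) and CHSY1 (-0.95), both for chondroitin chains, were lowest, and CHPF2 (0.97), B4GALT7 (0.69) and CHST13 (0.60) were highest. Of 24 genes of granule protein sorting and secretion, all measured, 3 were higher and 7 lower, beside the same 10.7% and 38.4% of all measured genes, with a median of -0.22. SYTL1 (-2.31), a Rab27 effector, IGF2R (-1.02), a mannose 6-phosphate receptor, and VPS13B (-0.99), mutated in Cohen syndrome, were lowest. Genes in the bins of intronic length that hold XYLT1, VPS13B and IGF2R were low too, and with the bin median subtracted these 3 were at -0.08, 0.02 and -0.32, against -2.34 for SYTL1. SRP19 (1.16), SEC61A1 (1.11) and G6PC3 (0.93) were highest, and the last 2 are genes in which mutations cause congenital neutropenia. Of 16 measured genes of heme supply and of the oxidase that feeds myeloperoxidase, 3 were higher and 2 lower, with a median of 0.18. These counts stand beside 10.7% and 38.4% of all measured genes. CYBB and NCF1 (1.36), both oxidase subunits, were among the higher genes, and the lowest were PPOX (-0.84), ALAD (-0.64) and ALAS1 (-0.55), all heme enzymes. Myeloperoxidase itself stayed near 0 in both libraries.

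Regulators of granulocyte precursors went in both directions. Of 20 measured, 8 were at least 1.5-fold lower and 3 higher in SP11, close to the shares of all measured genes (38.4% and 10.7%), with a median log2 ratio of -0.25. SPI1, which encodes PU.1, lay at 27.9 CPM in SP11 and 90.1 CPM in control (-1.69). CSF3R, the receptor for G-CSF, was at -1.41 and GFI1, a repressor needed for neutrophil formation, at -1.12. CEBPA (0.50) and CEBPE (0.49), C/EBP factors of granulocyte development, and MS4A3 (0.83), a marker of the granulocyte and monocyte precursor, did not share that direction. KLF4 (1.07) and KLF6 (1.02) were highest, and CEBPD and LEF1 were at 0 in both. Relative to the median gene, the counts of higher and lower genes past 1.5-fold were 13 and 0 for lysosomal enzymes, 5 and 1 for maturation and inhibitors, 4 and 0 for later granules, 5 and 3 for serglycin chains, 5 and 4 for sorting, 7 and 0 for heme and oxidase, and 7 and 4 for regulators, beside 22.5% and 24.3% of all measured genes. The granulocyte precursor genes named here thus did not go 1 way, since MS4A3, CEBPE and RNASE2 had a higher and ELANE, PRTN3, AZU1 and PRSS57 had a lower CPM in SP11.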

How the data were processed

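Single-cell RNA was measured in 1 SP11 and 1 control library, grouped by the labels' treatment field. The authors deposited matrices of UMI counts per gene and barcode, not normalized, which the file headers credit to Cell Ranger 7.1.0. The genome build in the submitters' processing notes is hg38 (GRCh38). The sources used here do not say whether reads in introns were counted.

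Barcodes with at least 200 genes and at most 20% mitochondrial UMIs were kept. That left more cells than the study states in each library, by a wider margin in control. Doublets called by Scrublet (scanpy 1.11.5), 21 in SP11 and 45 in control, were kept. UMIs summed over kept cells were divided by the library total (CPM). Intervals (95%) are exact Poisson for a CPM, exact binomial for shares of cells, and Clopper-Pearson on the split of UMIs for ratios, and they reflect only counting error. No test was made, since a group is 1 library. Whether the library pools several cultures is not stated. Clusters and phases were made per library in Seurat 5.3.0 under R 4.3.3 (2000 variable features, first 10 components, resolution 0.5). A cluster's leading genes have at least 20 UMIs in it.

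The 7 genes, the gene lists, the marker lists and the motifs were chosen with earlier results of these data known. Named genes are the 7, the 3 highest and 3 lowest of each list and its genes at 0, the 4 protein-coding genes on each side of the chromosome 19 locus and 2 on each side of the other members, and the 5 most correlated genes. Some genes that this rule takes are left unreported. A few list genes with a known role in the granule (such as CTSC, CEBPA and MS4A3) were named after their values were seen. Code for ratios was tested on simulated data. Alternatives used the size factors of DESeq2 1.42.0, TMM from edgeR 4.0.16, other cell filters, thinning depths and resolutions.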

Additional observations from a re-analysis of the deposited data

How the results depend on the processing

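The log2 ratio of ELANE was -1.22 with library totals, -0.90 with TMM factors, -0.87 with DESeq2 size factors, -1.27 with totals that leave out mitochondrially encoded genes, and -1.16 with an equal weight for every cell. Under the other alternatives run (all barcodes, at most 10% mitochondrial UMIs, at least 500 genes, no Scrublet doublets, no cells under 4400 UMIs, no top 10 cells, intronic length trend subtracted, and, added after the data were seen, no barcodes found in both libraries) it lay between -1.24 and -1.19. ELANE, PRTN3, AZU1, CTSG and LYZ kept their direction in every one of these. SRGN changed direction, to 0.29 with TMM, 0.32 with DESeq2, 0.055 with an equal weight for every cell and 0.13 with the intronic length trend subtracted. The share of cells with an ELANE UMI was lower in SP11 by 14.1 percentage points at 4400 UMIs, as a difference of -25.0 at 2000, -8.33 at 8000 and -6.11 without thinning, and that of SRGN turned to 0.34 at 2000 and 1.35 without thinning. The correlation of ELANE and PRTN3 in SP11 was 0.12 at 2000 UMIs, 0.29 at 8000 and 0.36 on log2(CPM + 50) without thinning, and in control 0.21, 0.43 and 0.40. Of the counts of list genes, 34 moved by over 1.5 times and 38 did not, and TMM and DESeq2 factors shift every ratio up by 0.32 and 0.35. The cause of these changes was not tested beyond the shift that the scaling adds. No paired analysis was possible because each group has 1 library, and no replicate could be left out. Depth limits MPO, whose ratio is not read.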

Other observations

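The summed transcripts of all 7 genes made up 3638 CPM of the SP11 library and 4454 CPM of the control library, a log2 ratio of -0.29 (-0.31 to -0.27), and LYZ and SRGN together held most of the sum in SP11. Among settings that leave out cells, CTSG had a log2 ratio of -0.54 without the 10 cells with the most CTSG UMIs in each library and -0.40 with a mitochondrial maximum of 10%, which kept 836 SP11 cells and 773 control cells, and AZU1 had -2.28 without the 10 cells with the most AZU1 UMIs in each library and -2.11 with that maximum. The 109 barcodes found in both libraries had profiles with a mean correlation of 0.0056 between the libraries, over 2916 genes, against 0.0001 for other pairs of cells. Markers of mature neutrophils summed to 27.1 CPM in SP11 and 50.5 CPM in control, with LCN2 and FCGR3B at 0 in both, those of mast cells or eosinophils to 90.6 CPM in SP11 and 73.1 CPM in control, nearly all of it TPSAB1, and those of B cells to 4.63 CPM in SP11 and 4.23 CPM in control.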
